A study of Mus musculus with 6 samples.

Results

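The 78 genes described here encode the proteins of the cytosolic ribosome of the mouse. They were chosen by name and biotype from the 54532 genes of the deposited count table, as protein-coding genes whose symbols start with Rpl or Rps and a number, with Rplp0, Rplp1, Rplp2 and Rpsa. Kinases, binding proteins and paralogs whose symbols look alike (the Rps6k genes, Rpl7l1, Rpl22l1, Rps27l, Rps27rt and others) were left out, and the rule uses no measured value. Of the 78 genes, 31 belong to the small and 47 to the large subunit.

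The libraries came from AML12 cells, a mouse hepatocyte line that was derived from a mouse carrying a transgene for human TGF-alpha, and all were labelled as wild type. The label PA/OA, 24 h is carried by 3 libraries and the label PP, 24 h by the other 3. The submitters' design text gives 400 nM PA and 800 nM OA for the modeling reagent and 250 µg/ml for PP, and it does not state whether the cells labelled PP also received PA/OA. The labels do not spell out PP, while the series title speaks of peptides from Camellia oleifera meal. Untreated control cells are not analysed here, so every comparison below is PP against PA/OA.

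A ribosome has a small subunit, which reads the mRNA, and a large subunit, which joins amino acids and holds the exit tunnel for the new chain. Each of its proteins is needed in about the same number of copies, and their genes are known for being expressed together in growing cells. Their mRNAs start with a run of pyrimidines, the TOP motif, through which mTOR and Larp1 control their translation and stability. Mammalian genomes also hold very many processed pseudogenes of these genes, copies that were made from the mRNA and that can be almost identical to it. In liver, a tissue with a large output of secreted proteins, ribosome synthesis is a large part of what a hepatocyte spends on growth.

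To look for runs of pyrimidines near the annotated start, the promoter sequences of RefSeq (assembly GRCm38.p6) were used, which matched 58 of the 78 genes. The 6 windows below each hold 30 bases before and 20 bases after the annotated start, 5′ to 3′ on the gene's strand. They were picked for genes of both subunits whose values follow, and capitals mark the longest run of a C followed by at least 7 pyrimidines. A marked run need not lie at the first base of the mRNA. In Rpl5 it ends before the annotated start, and in Rps12 it begins after it. The marked runs are therefore not shown to be the TOP motif.
Rps6, chr4:86857348-86857397, minus strand: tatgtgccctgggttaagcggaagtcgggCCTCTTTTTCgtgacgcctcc
Rps10, chr17:27635225-27635274, minus strand: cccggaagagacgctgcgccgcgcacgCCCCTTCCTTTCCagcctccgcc
Rps12, chr10:23787190-23787239, minus strand: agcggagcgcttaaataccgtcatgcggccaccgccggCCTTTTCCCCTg
Rpl5, chr5:107900498-107900547, plus strand: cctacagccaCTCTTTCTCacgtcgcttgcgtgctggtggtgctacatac
Rplp2, chr7:141447621-141447670, plus strand: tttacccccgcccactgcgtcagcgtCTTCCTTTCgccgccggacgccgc
Rpl7a, chr2:26910777-26910826, plus strand: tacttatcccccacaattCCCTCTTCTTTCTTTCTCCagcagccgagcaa

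Such a run within 30 bases of the start, on the gene's strand, was present in 48.3% of the members' windows (28 of 58) and in 18.0% of all 27025 windows. Its shares were close in the subunits, with 11 of 23 small and 17 of 35 large subunit genes. The letters CTCTTTC, which can lie inside such a run, were found on either strand of the 300-base window in 29.3% of the members and 8.01% of all windows. The ETS family core CCGGAAG, searched the same way, was present in 39.7% against 9.12%, and the GC box GGGCGG in 60.3% against 35.9%. TATAAA was present in 8.62% of the members and 14.2% of all windows. A match describes the letters and not a site that a factor used.

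All values per library below are given in CPM, counts relative to the library total, scaled by the trimmed mean of M values (TMM). Fold changes are log2 values of PP over PA/OA from a quasi-likelihood fit in edgeR. Their p-values were adjusted over all 15718 genes tested by the method of Benjamini and Hochberg, at a threshold of 0.05. The labels do not say that the 3 libraries of a group were separate cultures, and p-values then reflect only how much these libraries varied, which could be technical variation. In bulk RNA, more cells of a kind and more RNA per cell cannot be told apart. Total counts ran from 24113169 to 32560589 per library. Of 12 hepatocyte markers, Tat was at 0 in every library, Alb had 247 to 401 counts, and the summed level, most of it from Krt8 and Krt18, was 3030 to 3240 CPM in PA/OA and 3730 to 4080 CPM in PP. Without TMM scaling these sums were 3490 to 3760 and 3220 to 3460 CPM, so the direction turned. The 4 cholangiocyte markers that were tested (Spp1, Krt19, Sox9, Krt7) all rose, and the list of 6, with Epcam and Cftr at 0, summed to 2430 to 2550 CPM in PA/OA and 4050 to 4500 CPM in PP (2800 to 2960 and 3500 to 3820 CPM without TMM scaling). The 8 Kupffer and leukocyte markers summed to 3.66 to 4.29 CPM and 27.1 to 30.1 CPM, most of it from Cd68, with Adgre1 and Clec4f at 0. The 8 stellate cell and fibroblast markers stayed at or under 5.53 CPM in sum and the 6 endothelial markers at or under 1.50 CPM. The part of these differences in the results below was not tested.

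Nearly all cytosolic ribosomal protein genes were higher in PP. All 78 passed the filter on low counts, 73 rose, 1 fell (Rpl21), and Rps27a, Rps12, Rpl24 and Rpl36al did not pass the test. Over all genes tested, 75.0% were called, 35.1% higher and 39.9% lower. The members' median log2 fold change was 0.66, with quartiles of 0.55 and 0.76, and the median of all genes was -0.09. In 71 members every PP library lay above every PA/OA library, against 36.1% of all genes, in 1 every PP library lay below, and in 6 the groups overlapped.

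The medians of the 2 subunits were close, and their difference was not tested. In the small subunit 29 of 31 genes rose and none fell, with a median of 0.64, and in the large subunit 44 of 47 rose and 1 fell, with a median of 0.68. Of the small subunit genes 28, and of the large subunit genes 41, had a log2 fold change between 0.4 and 1, a band chosen after the values were seen.

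**Figure D1:**
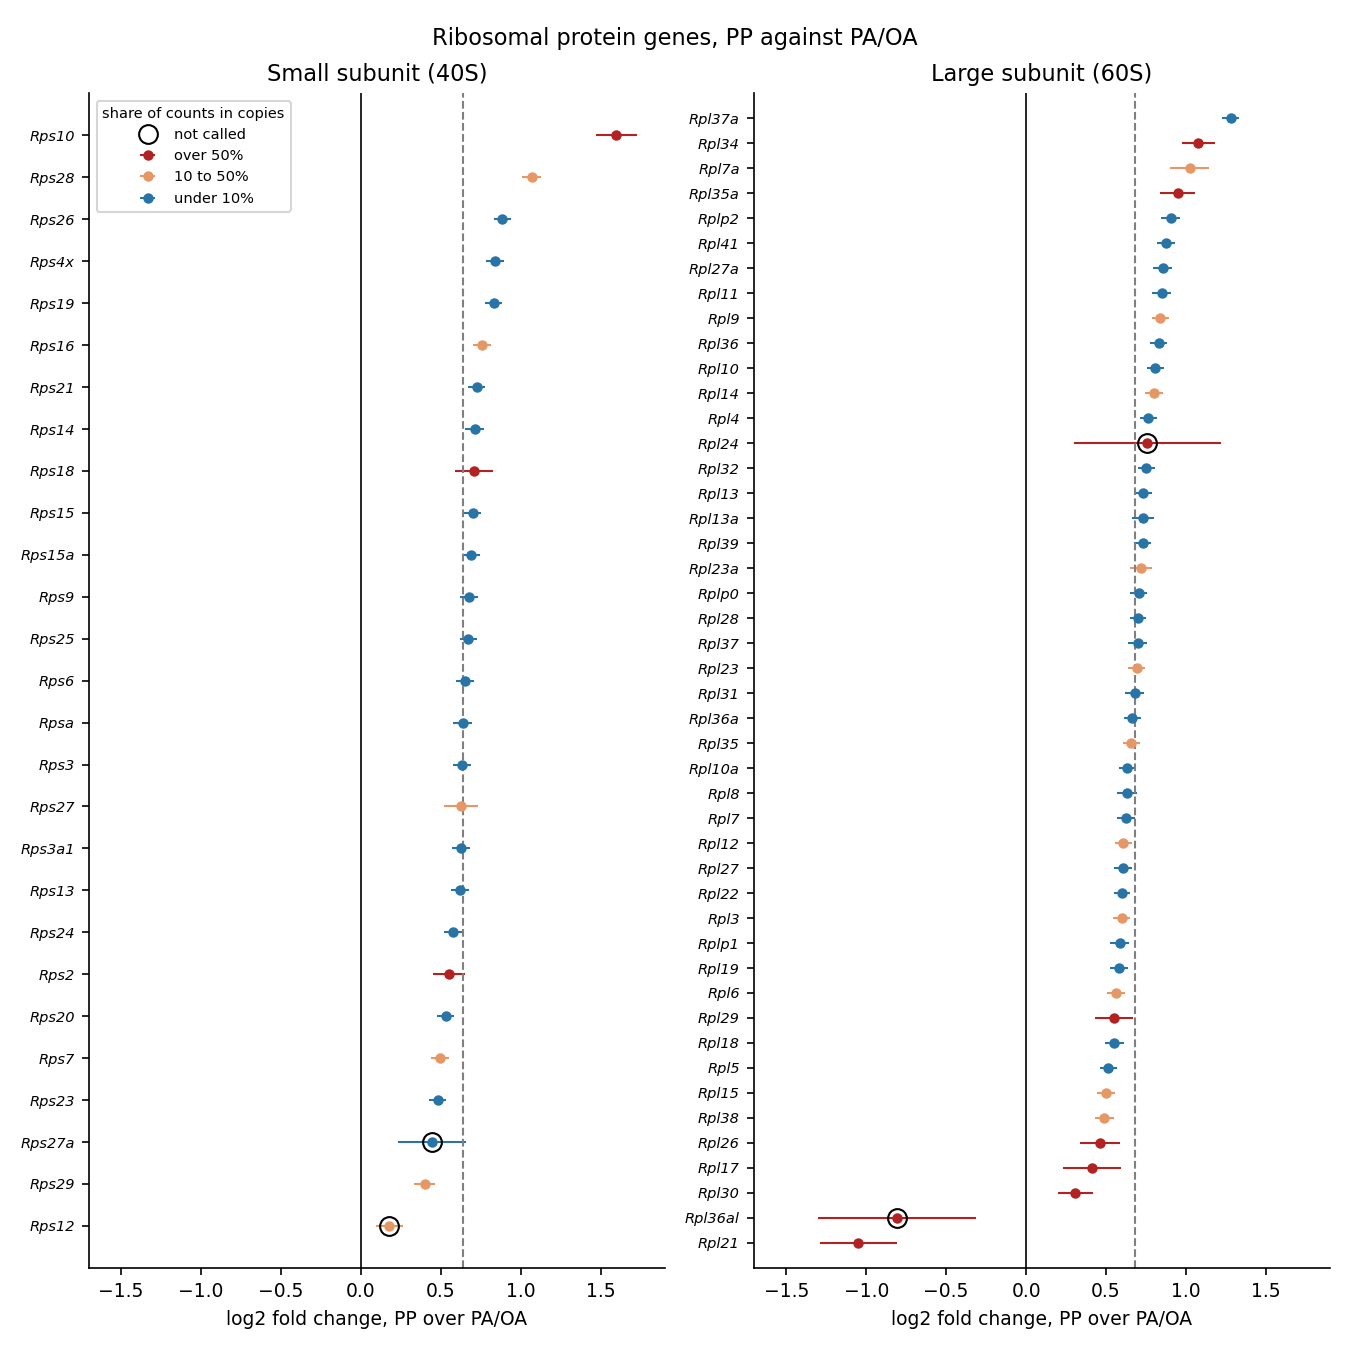
Log2 fold change of PP over PA/OA for small subunit genes (left) and large subunit genes (right), sorted by value, with 5 of the 78 genes not shown. Points are edgeR estimates and bars their standard errors, the dashed line is the median of the whole subunit, colours give the share of a gene's counts that lies in its near-identical copies, and open circles mark genes not called. Most genes sit close to the medians of 0.64 and 0.68, and Rpl21 and Rpl36al lie below 0.

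As a share of all protein-coding counts, which needs no scaling, the members took 5.50%, 5.78% and 5.85% in the PA/OA libraries and 6.40%, 6.89% and 6.55% in the PP libraries. All PP libraries were higher, and the ratio of the group means, 5.71% ± 0.186 (SD, n = 3) and 6.61% ± 0.250 (SD, n = 3), was 1.16. With 3 libraries against 3, the exact two-sided permutation test gave p = 0.1, the smallest p it can give. Small subunit genes took 2.28% ± 0.102 and 2.60% ± 0.0970 of protein-coding counts, and large subunit genes 3.43% ± 0.0845 and 4.01% ± 0.154 (SD, n = 3 each).

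The balance of the subunits moved little. Small subunit counts per large subunit count were 0.651, 0.672 and 0.676 in PA/OA and 0.650, 0.648 and 0.647 in PP. The PP libraries were all lower, with a difference of PP minus PA/OA of -0.0182 between the means, and the lowest PA/OA library lay close to the highest PP library (exact two-sided permutation p = 0.1, the smallest possible here). With near-identical copies added to both subunits the ratios were 0.644 ± 0.0128 and 0.627 ± 0.00106 (SD, n = 3 each).

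**Figure D2:**
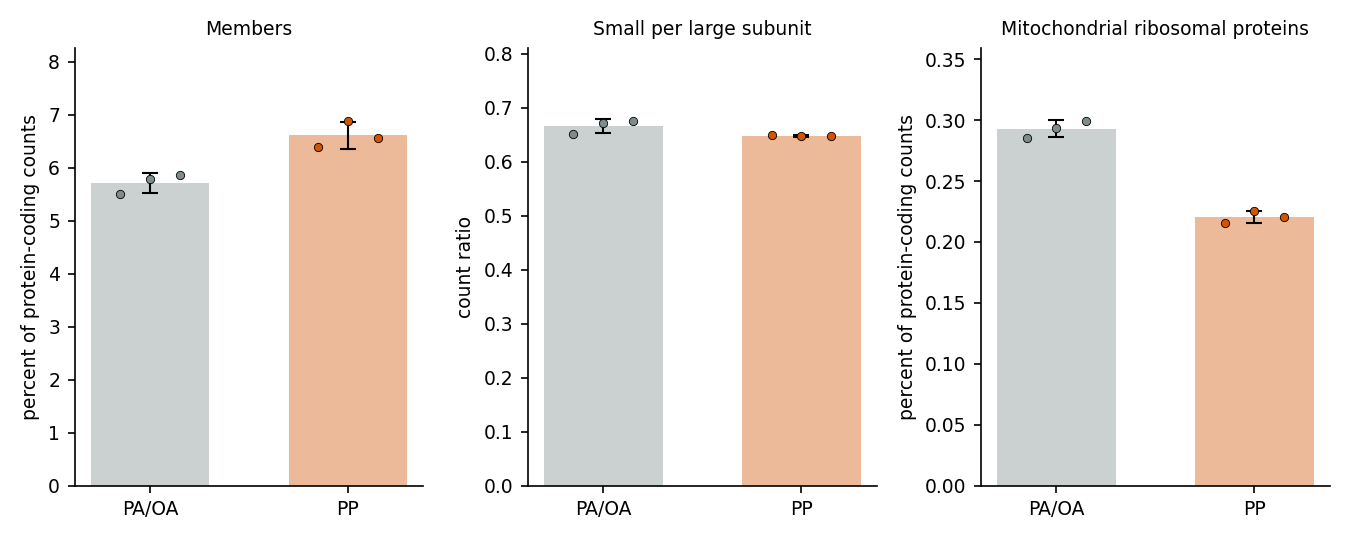
Left, the members' share of protein-coding counts in percent; middle, small subunit counts per large subunit count; right, the share of mitochondrial ribosomal protein genes in percent. Bars are means of 3 libraries, error bars the SD and points single libraries: the members' share was 5.71% in PA/OA and 6.61% in PP, and that of the mitochondrial ribosomal protein genes 0.293% and 0.221%.

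Other abundant genes were also mostly higher in PP. Among 1666 other protein-coding genes with an average of at least 7 log2 CPM, 70.9% rose and 18.4% fell, with a median of 0.52 and quartiles of 0.05 and 0.97. The ribosomal protein genes had a similar median and a narrower spread, with 88.5% of the 78 and 32.8% of the 1666 between 0.4 and 1. Between 9 and 10 log2 CPM, where 25 members lie, the members' median was 0.70 and that of 147 other protein-coding genes 0.62. Between 10 and 11 log2 CPM it was 0.63 over 19 members and 0.91 over 40 others. Other protein-coding genes with a deposited exon length of up to 1500 bases, 791 genes that were not matched to the members in abundance, had a median of 0.14.

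**Figure D3:**
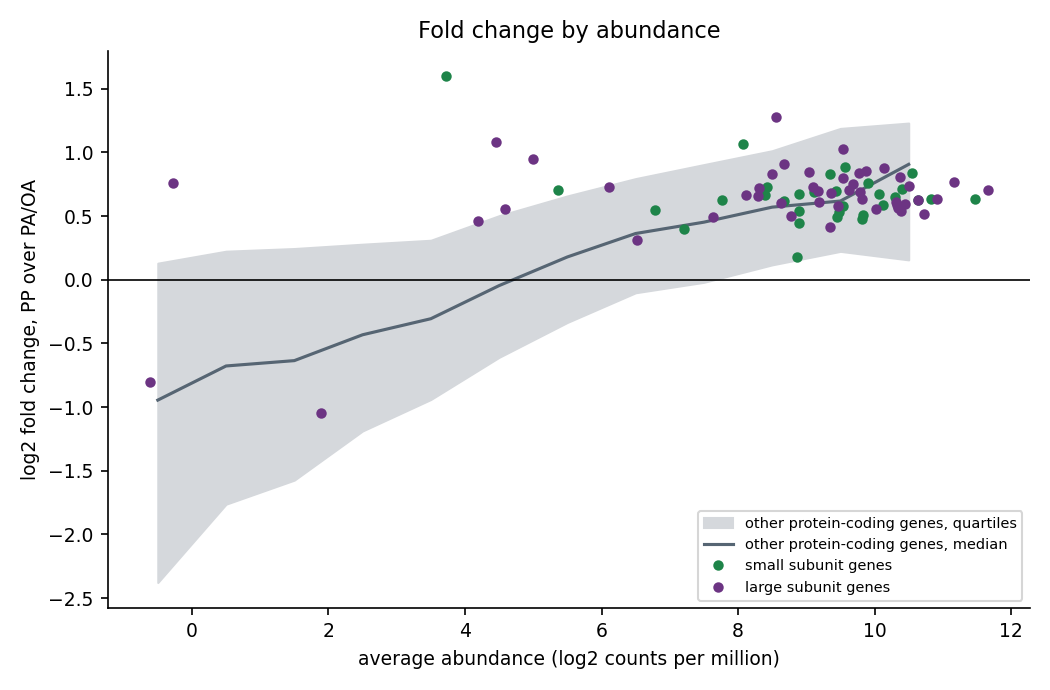
Log2 fold change of PP over PA/OA (vertical axis) against average abundance in log2 CPM (horizontal axis). The grey band and line give the quartiles and median of the other protein-coding genes in bins of 1 log2 CPM with at least 20 genes, and points are members; the median of the others rises from -0.95 in the lowest bin to 0.91 in the highest, and most members lie within the band.

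The scaling sets the size of the rise. Among members reported by name and called in either fit, the direction turned for 4 with library size alone. It turned for 29 once the trend with abundance was removed. With library size alone as the scale, 56 members rose and 3 fell (Rps12, Rpl21 and Rpl36al), with a median of 0.23, while the median of all genes was -0.52 and 20.6% of all genes were called higher and 56.7% lower. When each library's trend with abundance was removed, 26 members were called higher, 20 lower and 32 were not called, with a median of 0.04. Of all genes, 35.7% were then higher and 35.4% lower. The trend was fitted over all genes, members included, so higher and lower there are relative to genes of like abundance. Under that setting the small subunit's median was -0.01, with 7 genes higher and 9 lower, and the large subunit's was 0.04, with 19 higher and 11 lower. Upper-quartile scaling gave a median of 0.42. Fold changes below are on the TMM scale unless another is named.

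On own counts, the 2 most abundant members per length, Rplp1 and Rplp0, belonged to the stalk of the large subunit. Its other genes Rplp2 and Rpl12 ranked 59 and 24 in PA/OA. Per kilobase of the principal mRNA, Rplp1 had 2068 ± 174 CPM in PA/OA and 3101 ± 158 CPM in PP, and Rplp0 had 1806 ± 69.4 and 2944 ± 137 (SD, n = 3 each). Rpl8 followed in PA/OA with 1497 ± 102 CPM per kilobase. With near-identical copies summed, Rpl26 ranked 3 in PA/OA with 1515 CPM per kilobase. In PP, Rplp0 (3161) then ranked above Rplp1 (3148). In PA/OA the libraries of Rplp1 (1896 to 2244) lay above those of Rplp0 (1734 to 1873), and in PP they overlapped, 2996 to 3283 against 2842 to 3099. The middle of the 78 genes lay at 590.2 CPM per kilobase in PA/OA, with quartiles of 304 and 843, and at 957 in PP, with quartiles of 471 and 1257. Some genes changed place in this order, which was not tested: Rps12 ranked 29 in PA/OA and 45 in PP, and Rpl37a 55 and 40.

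Genes around the mRNA channel of the small subunit all rose with TMM scaling. The 6 genes Rps2, Rps3, Rps15, Rps23, Rps26 and Rps28 had a median of 0.67. Rps3, a protein at the mRNA entry, had 1343, 1459 and 1494 CPM in PA/OA and 2166, 2334 and 2161 CPM in PP, a log2 fold change of 0.63 (SE 0.055, edgeR adjusted p = 8.19e-10). Rps26 and Rps28 line the mRNA exit. Rps28 went from 170.1, 161 and 189 CPM to 372, 361 and 357 CPM, 1.07 (SE 0.059, edgeR adjusted p = 3.79e-13). Its PP libraries lay close together, each well above the highest PA/OA library. Rps26 had 519, 556 and 522 CPM in PA/OA and 955, 1004 and 989.8 CPM in PP, 0.89 (SE 0.052). Rps15, whose tail reaches the decoding site, had 509.5, 520.5 and 563 CPM in PA/OA and 833, 905 and 848 CPM in PP, 0.70 (SE 0.055). Rps23, at the decoding centre, had 722, 770.3 and 779 CPM in PA/OA and 1036, 1121 and 1010.0 CPM in PP, 0.48 (SE 0.055). Of the 6 genes Rps23 had the smallest rise. In all 6 every PP library lay above every PA/OA library, as in 71 of all 78 members and 36.1% of all genes. With the abundance trend removed, Rps28 (0.57) and Rps26 (0.23) were called higher and Rps3 (-0.16) and Rps23 (-0.21) lower, while Rps2 (0.19) and Rps15 (0.05) did not pass the test.

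Rps6, the substrate of S6 kinase that serves as a readout of mTOR activity, had 950.0, 1056 and 946 CPM in PA/OA and 1513, 1580 and 1545 CPM in PP. The groups did not overlap, and the log2 fold change was 0.65 (SE 0.054, edgeR adjusted p = 4.11e-10), near the median of its subunit. Rps20, which is ubiquitinated on collided ribosomes, had 558, 606 and 587 CPM in PA/OA and 828, 882 and 819 CPM in PP, 0.53 (SE 0.053). Once the abundance trend was removed, Rps6 had -0.09 and was not called, and Rps20 was called lower (-0.12).

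Rps27a, which encodes ubiquitin fused to a small subunit protein, had the widest spread within PA/OA of the members above 100 CPM. It had 258.5, 412 and 543 CPM in PA/OA and 305, 652 and 693 CPM in PP. The lowest PP library lay inside the PA/OA range, and the log2 fold change of 0.45 did not pass the test (SE 0.212, edgeR adjusted p = 0.0625). Its coefficients of variation were 35.1% and 38.7%, against medians of 5.34% and 4.98% over all members. It passed the test without PA/OA replicate 3 (0.72, edgeR adjusted p = 0.00777) and without PP replicate 1 (0.76, edgeR adjusted p = 6.87e-05).

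Rps19 and Rps24, small subunit genes that are mutated in Diamond-Blackfan anaemia, rose with the rest. Rps19 had 447, 466 and 492 CPM in PA/OA and 820, 849 and 832 CPM in PP, 0.83 (SE 0.053, edgeR adjusted p = 3.97e-12). Rps24 had 561, 648 and 589 CPM in PA/OA and 851, 909.6 and 921 CPM in PP, 0.58 (SE 0.058). Both genes had no PP library within the range of PA/OA, and the same was true of the next 2. Every PP library lay above PA/OA in 36.1% of all genes. Rps7, which also binds Mdm2, had 528, 609 and 610.2 CPM in PA/OA and 803, 851 and 808 CPM in PP, 0.49 (SE 0.059). Rpsa, a protein of the small subunit's head region that is also known as a laminin receptor, had 2106, 2252 and 2328 CPM in PA/OA and 3311, 3734 and 3346 CPM in PP, 0.64 (SE 0.057). After removal of the abundance trend, Rps19 was higher (0.20), Rps7 (-0.16) and Rpsa (-0.22) were lower, and Rps24 (-0.08) was not called.

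Rps12 was the small subunit gene with the lowest fold change. It had 355, 481 and 475 CPM in PA/OA and 478, 543 and 463 CPM in PP, so the groups overlapped, and 0.18 did not pass the test (SE 0.084, edgeR adjusted p = 0.0607). It did pass without PA/OA replicate 2 (0.26) or 3 (0.24) and without PP replicate 1 (0.23) or 3 (0.25), with edgeR adjusted p-values from 0.0119 to 0.0315. With library size alone it fell by 0.26 on the log2 scale. Rps29, a small zinc-binding protein, came next among called genes with 121, 119 and 144 against 177, 164 and 165 CPM, 0.40 (SE 0.066, edgeR adjusted p = 1.37e-05).

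In the large subunit, the stalk proteins Rplp0, Rplp1, Rplp2 and Rpl12, which recruit elongation factors, all rose with TMM scaling, with a median of 0.66. Rplp0 had 2355, 2461 and 2543 CPM in PA/OA and 3859, 4209 and 3926 CPM in PP, 0.71 (SE 0.053, edgeR adjusted p = 7.55e-11). Rplp2 had 284, 266 and 307 CPM in PA/OA and 509, 567 and 529.6 CPM in PP, 0.91 (SE 0.060). Rplp1, its partner, had 946, 1029 and 1120.0 CPM in PA/OA and 1509, 1638 and 1495 CPM in PP, 0.58 (SE 0.060). Rplp2 had the largest rise of the 4, and none of them overlapped between the groups. Every PP library lay above PA/OA in 36.1% of all genes. Rpl12, at the base of the stalk, had 948, 1052 and 1005 CPM in PA/OA and 1503, 1592 and 1491 CPM in PP, 0.61 (SE 0.054). With the abundance trend removed, Rplp2 was called higher (0.34) and Rplp0 (-0.16), Rplp1 (-0.16) and Rpl12 (-0.13) lower.

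Rpl5 and Rpl11 bind the smallest ribosomal RNA and, when free, hold back Mdm2. Rpl5 had 1355, 1442 and 1365 CPM in PA/OA and 1907, 2131 and 1910 CPM in PP, 0.52 (SE 0.055, edgeR adjusted p = 2.42e-08). Rpl11 had 357, 382 and 389 against 631, 738 and 663 CPM, 0.85 (SE 0.060, edgeR adjusted p = 2.49e-11). Neither gene overlapped between the groups, and with the abundance trend removed Rpl5 was at -0.26 and Rpl11 at 0.25.

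Of 8 genes of the p53 arm that these 2 proteins act on, 4 rose and 2 fell. These are 50% and 25%, beside 35.1% and 39.9% of all genes. Mdm2, the ubiquitin ligase of p53, had 97.9, 104 and 96.0 CPM in PA/OA and 195, 196 and 196 CPM in PP, 0.98 (SE 0.055, edgeR adjusted p = 4.87e-13). Cdkn1a, a cell cycle inhibitor and p53 target, had 1.75 (SE 0.056). Trp53 itself fell, from 135, 138 and 142 CPM to 36.2, 40.2 and 32.7 CPM, by 1.93 on the log2 scale (SE 0.071, edgeR adjusted p = 4.29e-16). Bax (1.11) and Bbc3 (0.555) also rose, Sesn2 (-0.90) fell, and Ccng1 (0.09) and Zmat3 (0.07) did not pass the test.

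The exit tunnel proteins Rpl4, Rpl39, Rpl23a and Rpl35 all rose, between 0.66 and 0.76, the narrowest range of the 8 role groups. Rpl4 reaches into the tunnel and had 1645, 1791 and 1642 CPM in PA/OA and 2798, 2976 and 2851 CPM in PP. Rpl39 lines it and had 404, 428 and 410.0 CPM in PA/OA and 696, 690.0 and 673 CPM in PP. Rpl23a and Rpl35 sit at its end, where new chains meet the signal recognition particle. Rpl23a had 222, 256 and 242 CPM in PA/OA and 398, 352 and 433 CPM in PP. Rpl35 had 231, 239.5 and 256 CPM in PA/OA and 381, 392 and 374 CPM in PP. In each of the 4 the highest PA/OA library lay below the lowest PP library, as in 36.1% of all genes. With the abundance trend removed, Rpl39 (0.12), Rpl23a (0.20) and Rpl35 (0.14) were called higher and Rpl4 had -0.05 and was not called.

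Among proteins of the core and those that join late, Rpl10, which is added in the cytoplasm, had 938, 987 and 977 CPM in PA/OA and 1631, 1775 and 1673 CPM in PP, 0.81 (SE 0.052, edgeR adjusted p = 5.65e-12). Rpl3, at the peptidyl transferase centre, had 1100.0, 1162 and 1085 CPM in PA/OA and 1612, 1768 and 1686 CPM in PP, 0.60 (SE 0.053). Rpl8, close to the same centre, had 1456, 1478 and 1647 CPM in PA/OA and 2292, 2562 and 2231 CPM in PP, 0.63 (SE 0.061). All 3 were apart between the groups with PP higher, as were 36.1% of all genes. After removal of the abundance trend, Rpl10 (0.07) was not called and Rpl3 (-0.16) and Rpl8 (-0.17) were lower. Of this group of 6, Rpl37a, Rpl24 and Rpl21 are described further on.

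Proteins with reported functions off the ribosome (Rpl13a, Rpl22, Rpl26, Rpl38, Rpl10a) all rose, with values from 0.46 to 0.73. Rpl22, which is lost in some lymphoid tumours, had 308, 330.5 and 309 CPM in PA/OA and 465, 488 and 483 CPM in PP. Rpl38, known for translation of Hox mRNAs, had 174, 152 and 168 CPM in PA/OA and 245, 225 and 224 CPM in PP. Rpl10a had 719, 698 and 699 CPM in PA/OA and 1070.0, 1143 and 1063 CPM in PP. Rpl26, known for binding the p53 mRNA, was far lower in its own counts. It had 16.2, 12.8 and 17 CPM in PA/OA and 19.3, 24.9 and 19.1 CPM in PP. Near-identical copies held 98.4% of its summed counts. With them it had 847, 943 and 964 CPM in PA/OA and 1265, 1419 and 1311 CPM in PP. The groups did not overlap in any of these genes, and 36.1% of all genes had every PP library above PA/OA. Once the abundance trend was removed, with own counts only, Rpl13a (0.46) and Rpl26 (0.55) were called higher. Rpl22 (0.04), Rpl38 (0.03) and Rpl10a (-0.06) were not called.

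Rpl37a, a zinc-binding protein of the large subunit, had the largest rise among members with few counts in copies. It had 215, 221 and 220.1 CPM in PA/OA and 508, 555 and 530.4 CPM in PP, a log2 fold change of 1.28 (SE 0.053, edgeR adjusted p = 2.92e-15). The PA/OA libraries differed by a few CPM, and 0.9% of its counts with copies lay in the copies. With the abundance trend removed it was still called higher, at 0.74. Rpl7a had 434, 631 and 409.5 CPM in PA/OA and 781, 1094 and 1121 CPM in PP, a wide spread in both groups without overlap (1.02, SE 0.124).

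**Figure D4:**
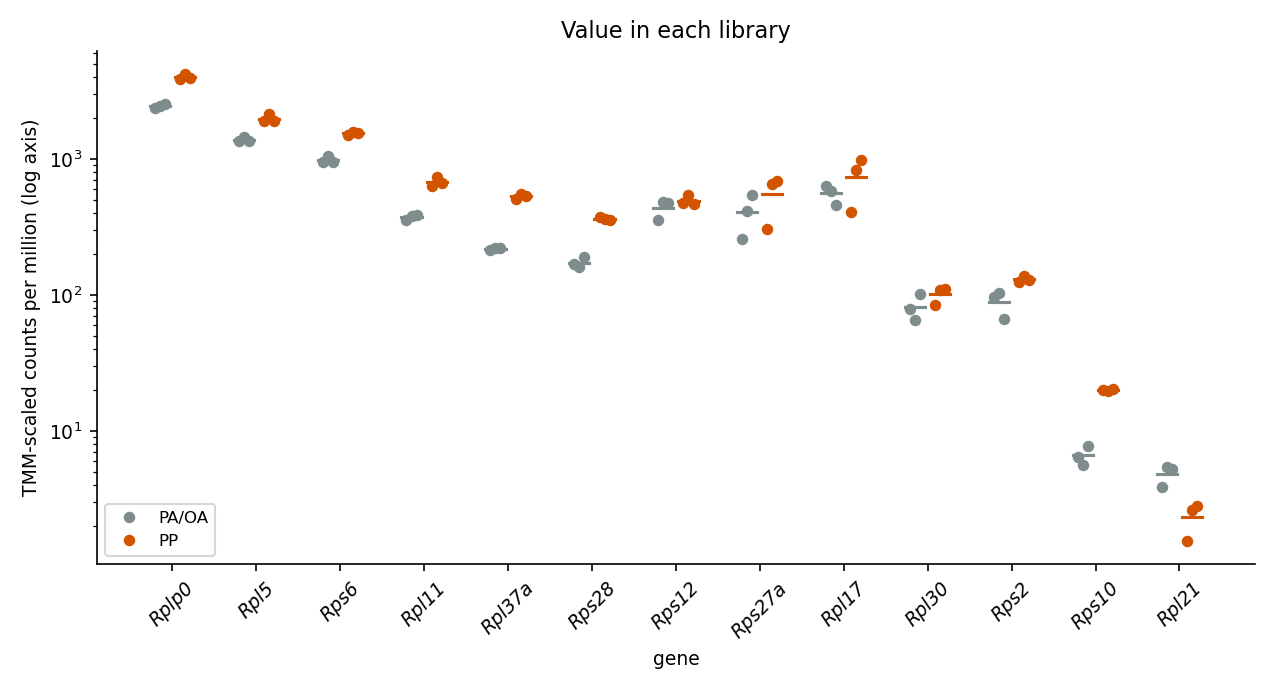
TMM-scaled CPM in each library, on a log axis, for 13 members; points are libraries (grey PA/OA, orange PP) and lines the group means. The groups are apart for Rplp0, Rpl5, Rps6, Rpl11, Rpl37a, Rps28, Rps2 and Rps10, overlap for Rps12, Rps27a, Rpl17 and Rpl30, and are apart in the other direction for Rpl21.

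Of the 9 members outside a log2 fold change of 0.4 to 1, 5 had more counts in near-identical copies than of their own (Rps10, Rpl34, Rpl30, Rpl21 and Rpl36al). The other 4 (Rpl37a, Rpl7a, Rps28 and Rps12) had from 0.9% to 31.6% in copies. A blastn search of each coding sequence against GENCODE M21 transcripts, chosen after the data were seen, found 961 annotated copies with at least 90% identity over at least 70% of the coding sequence, for 75 of the 78 genes. Of these, 914 were annotated as processed pseudogenes and 654 had counts. The treatment of reads that match several places is not given in the labels or file headers. Of 77 members with a coding sequence of at least 100 bases, 22 shared every 100-base window with another gene's transcript, letter for letter, and 5 shared none.

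The 3 pairs of gene and copy below, 90 coding bases each, were chosen for their large counts in copies and show how little tells them apart, with the differing bases in capitals. For Rps2, 91.8% of the summed counts lay in copies. Its copy Rps2-ps13 (chrX:52898588-52899469, plus strand, GRCm38) differs at 7 of 882 aligned coding bases. For Rpl26 the share was 98.4%, and Gm15772 (chr5:3236431-3236868, plus strand) differs at 2 of 438. For Rps10 it was 94.3%, and Rps10-ps2 (chr16:20822145-20822640, minus strand) differs at 5 of 496.
Rps2: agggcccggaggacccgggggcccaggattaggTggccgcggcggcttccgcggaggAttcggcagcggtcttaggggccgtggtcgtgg
Rps2-ps13: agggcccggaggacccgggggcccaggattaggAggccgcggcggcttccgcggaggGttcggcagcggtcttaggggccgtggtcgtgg
Rpl26: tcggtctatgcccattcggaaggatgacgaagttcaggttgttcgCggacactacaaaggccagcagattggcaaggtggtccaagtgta
Gm15772: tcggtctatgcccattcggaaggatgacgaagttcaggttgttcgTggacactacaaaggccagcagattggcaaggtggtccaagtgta
Rps10: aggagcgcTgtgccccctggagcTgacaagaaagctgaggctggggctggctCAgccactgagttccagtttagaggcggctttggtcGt
Rps10-ps2: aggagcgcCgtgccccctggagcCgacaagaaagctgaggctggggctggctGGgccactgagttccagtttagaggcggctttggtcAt

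The counts listed for the copies were large. Rps2-ps13 had 26800, 25686 and 28807 counts in PA/OA and 34916, 44909 and 40145 in PP, while Rps2 itself had 97.2, 104 and 66.5 CPM in PA/OA and 124, 139 and 129 CPM in PP. Gm15772 had 26084, 27934 and 26463 counts in PA/OA and 29441, 38276 and 35283 in PP. With copies added, Rps2 had 975, 983 and 1124 CPM in PA/OA and 1633, 1808 and 1630.0 CPM in PP, and its fold change went from 0.55 to 0.72. All copies together held 13.5% ± 0.281 of the counts of members and copies in PA/OA and 13.7% ± 0.260 in PP (SD, n = 3 each), and these shares overlapped.

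In all, 12 members had more counts in copies than of their own: Rpl26, Rpl34, Rps10, Rps2, Rpl24, Rps18, Rpl30, Rpl29, Rpl21, Rpl36al, Rpl35a and Rpl17. Of these, 9 rose, Rpl21 fell, and Rpl24 and Rpl36al did not pass the test, with a median of 0.55. Their log2 fold changes had an SD of 0.738 across genes, and 0.303 once copies were summed. In the 48 members with under 10% of counts in copies, 47 rose and Rps27a did not pass the test, with values from 0.45 to 1.28 and an SD of 0.141. In the 18 members between these limits, 17 rose and Rps12 did not pass. These classes were set after the values were seen and were not tested.

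Rps10, a small subunit protein at the mRNA entry that is ubiquitinated on collided ribosomes, had the largest rise of all members. It had 6.38, 5.63 and 7.79 CPM in PA/OA and 20.1, 19.5 and 20.2 CPM in PP, 1.60 (SE 0.129, edgeR adjusted p = 2.52e-10). With its copies it had 169, 166 and 174 CPM in PA/OA and 278, 304 and 286 CPM in PP, and the fold change was 0.77 (edgeR adjusted p = 5.02e-12). Both sets of values left the groups apart. Rpl34, of the large subunit, had 15.4, 12.5 and 14.3 CPM in PA/OA and 30.1, 31.5 and 27.5 CPM in PP, and its fold change went from 1.08 to 0.75 in the same way.

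Rpl21 was the only member called lower with TMM scaling and own counts. It had 3.89, 5.43 and 5.22 CPM in PA/OA and 1.56, 2.61 and 2.80 CPM in PP, and it fell by 1.05 on the log2 scale (SE 0.242, edgeR adjusted p = 5.26e-04). With its 74 copies it had 15.3, 15.2 and 15.2 CPM in PA/OA and 15.5, 16.9 and 17.5 CPM in PP, so that the sign turned to 0.13 and the test was not passed (edgeR adjusted p = 0.282). All PP libraries were below PA/OA in the first set of values and above it in the second.

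Rpl24 and Rpl36al had few counts of their own. Rpl24, which joins the large subunit late, had 0.797, 0.50 and 0.393 CPM in PA/OA and 1.26, 1.01 and 0.619 CPM in PP (0.76, SE 0.460, edgeR adjusted p = 0.141). With copies its fold change was 1.29, from 3.87, 5.51 and 5.42 CPM to 13.1, 10.5 and 12.5 CPM (edgeR adjusted p = 1.56e-07), and the groups no longer overlapped. Rpl36al, a close relative of Rpl36a, had 0.670, 0.466 and 1.07 CPM in PA/OA and 0.379, 0.507 and 0.364 CPM in PP, with overlapping groups (-0.81, SE 0.495, edgeR adjusted p = 0.146). With copies, which held 72.9% of its counts, the sign turned to 0.18 and the test was again not passed (edgeR adjusted p = 0.584).

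There were 6 members that share at least 10% of their exon bases with another gene on their own strand that had no count in any library. Among these, such a gene covered 47.0% of the exon bases of Rpl24 (Gm28037), 29.4% of Rpl13a (Gm45713), 24.5% of Rpl36al (Gm49383), 20.6% of Rps10 (RPS10-NUDT3) and 14.5% of Rpl32 (Snora7a). Rpl13a had 50.1, 51.1 and 54.3 CPM in PA/OA and 82.7, 94.1 and 80.8 CPM in PP, a rise of 0.73 (SE 0.070, edgeR adjusted p = 4.33e-09). In all, 12 members share at least 10% of their exon bases with another gene, among them Rpl35 with Wdr38 (66.2%), Rpl23a with Tlcd1 (59.7%) and Rpl5 with Fam69a (24.3%) on the opposite strand. The strand setting of the counting was not stated, so reads of such genes may not have been told apart.

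Summing copies also brought libraries of a group together. At first 15 members had a coefficient of variation above 15%, a limit set after the values were seen, in at least 1 group, and 5 did once copies were summed. Rpl17 had 636, 582 and 456 CPM in PA/OA and 405, 833 and 987 CPM in PP, with 1 PP library below all others (0.41, SE 0.181, edgeR adjusted p = 0.0452). That call was lost without PA/OA replicate 2 (0.45) or 3 (0.29) and without PP replicate 2 (0.34) or 3 (0.18), with edgeR adjusted p-values from 0.0607 to 0.334. Without PP replicate 1 the fold change was 0.73. With copies it had 1103, 1090.0 and 1017 CPM in PA/OA and 1611, 1872 and 1765 CPM in PP, apart from each other, with a fold change of 0.71. Rpl30, an RNA-binding protein of the large subunit, went from 78.5, 65.9 and 101 against 84.0, 108 and 111 CPM, with overlap, and 0.31 to a fold change of 0.72. Its call on own counts was lost without PA/OA replicate 1 (0.28) or 2 (0.18) and without PP replicate 2 (0.28) or 3 (0.26), with edgeR adjusted p-values from 0.0501 to 0.118. Rps27a kept its spread, with coefficients of variation of 32.2% and 35.2% after summing.

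Over all members, summing copies gave 76 genes higher, none lower and 2 not called (Rpl21 and Rpl36al), with a background of 35.3% of genes higher under that setting. The fold changes then ranged from 0.13 to 1.29. Their quartiles were 0.59 and 0.77, and the medians 0.66 for the small and 0.71 for the large subunit.

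**Figure D5:**
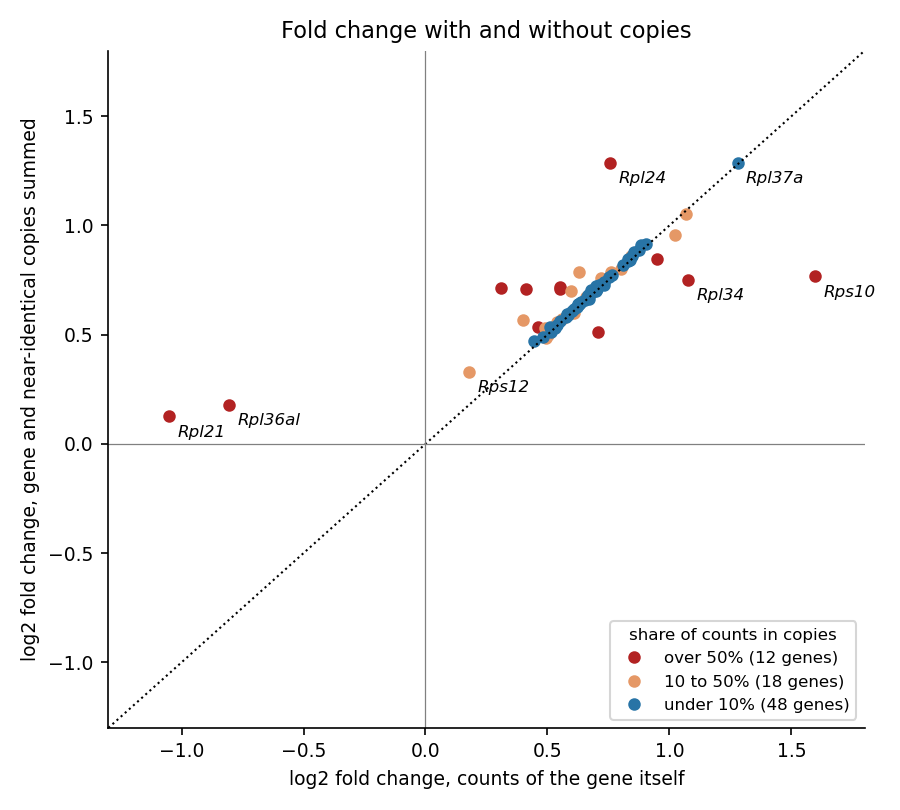
Log2 fold change of PP over PA/OA from a gene's own counts (horizontal axis) and with its near-identical copies summed (vertical axis); the dotted line marks equal values and colours the share of counts in copies. The 48 genes with under 10% of counts in copies lie on the line, while Rpl21 moves from -1.05 to 0.13 and Rps10 from 1.60 to 0.77.

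Members with and without these promoter letters had close medians, and the difference was not tested. The 28 members with the pyrimidine run had a median log2 fold change of 0.70 (quartiles 0.62 and 0.81) and the 30 without it 0.68 (0.61 and 0.80). The 23 with CCGGAAG had 0.67 and the 35 without it 0.70. The 20 members with no RefSeq window had 0.57.

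Most other genes with TOP mRNAs rose. Of 17 such genes outside the ribosome, mostly translation factors, 16 rose (94.1%, beside 35.1% of all genes) and none fell. Their median was 0.59. Eif3f, a subunit of the initiation factor that binds the small subunit, had 267, 282 and 277 CPM in PA/OA and 547, 584 and 552 CPM in PP, 1.03 (SE 0.052, edgeR adjusted p = 9.54e-14). Eef2, the translocation factor, had 0.77 and Eef1a1, which delivers tRNAs, 0.55, while Eif4a2 did not pass the test (0.09, edgeR adjusted p = 0.179). With the abundance trend removed, 3 of the 17 were called higher and 10 lower, beside 26 and 20 of the 78 members.

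Ribosomal proteins that the name rule leaves out rose as well. Fau, which encodes a ubiquitin-like protein fused to a small subunit protein, had 766, 758 and 845 CPM in PA/OA and 1515, 1647 and 1540.0 CPM in PP, 0.99 (SE 0.056, edgeR adjusted p = 5.91e-13). Rack1, the scaffold on the small subunit, had 0.54. Neither gene overlapped between the groups.

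Paralogs left out by the rule were mixed. Rpl22l1, the relative of Rpl22, rose by 0.76, Rpl7l1, which takes part in ribosome assembly, fell by 0.95 on the log2 scale, and Rps27l, a p53 target, had -0.01 and did not pass the test. Rps27rt, whose sequence matches Rps27 over the whole aligned stretch, rose by 1.15 (SE 0.196). It had 44.4, 46.4 and 84.9 CPM in PA/OA and 91.7, 114 and 181 CPM in PP. Rps27, all of whose 100-base coding windows are shared, had 185, 195 and 129 CPM in PA/OA and 289, 276 and 222 CPM in PP. In replicate 3 of both groups Rps27rt was highest and Rps27 lowest. How reads were divided between these genes was not tested. With copies summed, Rps27 rose by 0.785.

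Genes that handle ribosomal proteins before assembly went both ways. Of 11 chaperones, escorts and importins tested, 5 rose and 4 fell, which is 45.5% and 36.4% beside 35.1% and 39.9% of all genes, with a median of 0.03. Grwd1, a histone and Rpl3 chaperone, fell from 33.8, 30.5 and 34.4 CPM to 3.87, 4.96 and 4.66 CPM, by 2.87 on the log2 scale (SE 0.119, edgeR adjusted p = 3.10e-15). Heatr3, which escorts Rpl5, fell by 2.27, Tsr2, which escorts Rps26, fell by 2.34, and Ltv1, an assembly factor of the small subunit, fell by 0.99. Pdcd2l, a relative of the Rps2 chaperone Pdcd2, rose by 1.58, and the importin Kpnb1 rose by 1.00.

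Among 13 regulators of these mRNAs and of their translation, 5 rose and 6 fell (38.5% and 46.2%, beside 35.1% and 39.9% of all genes). Larp1, which binds the TOP motif, fell by 0.33 (SE 0.055), and Rptor, the mTORC1 scaffold, fell by 0.71 (SE 0.063), while Mtor had -0.04 and did not pass the test. Eif4ebp1, the inhibitor that mTORC1 switches off, rose by 1.14 (SE 0.056), and Pabpc1, the poly(A) binding protein, rose by 0.71. These are mRNA levels, and the activity of mTOR was not measured.

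Of 9 transcription factors and partners linked to ribosomal protein promoters, 7 rose and 1 fell (77.8% and 11.1%, beside 35.1% and 39.9% of all genes). Fewer were higher with library size alone or with the abundance trend removed, as given in the last section. Sp1 had 186, 201 and 183 CPM in PA/OA and 488, 468 and 487 CPM in PP, 1.34 (SE 0.054, edgeR adjusted p = 2.13e-15), and Yy1 had 1.32 (SE 0.056). Myc, which drives ribosome synthesis, fell from 143, 143 and 147 CPM to 103, 112 and 104 CPM, by 0.44 on the log2 scale (SE 0.056, edgeR adjusted p = 3.47e-07). A list of 18 genes, most of which sense stalled ribosomes, rescue them or turn them over, had 8 that rose and 6 that fell. These are 44.4% and 33.3%, beside 35.1% and 39.9% of all genes, and the list's median was 0.14. Znhit6, which serves in snoRNP assembly, fell by 2.05, and Tcf25, a subunit of the quality control complex, rose by 1.00.

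Genes of the mitochondrial ribosome took a smaller share of counts in PP. Of 77 tested genes, 21 rose and 35 fell, which is 27.3% and 45.5% beside 35.1% and 39.9% of all genes. Their median was -0.16, beside -0.09 over all genes, and their range was -0.98 to 1.46. Their share of protein-coding counts was 0.286%, 0.293% and 0.300% in PA/OA and 0.216%, 0.225% and 0.221% in PP. The ratio was 0.753 without overlap (exact two-sided permutation p = 0.1, the smallest possible here). With library size alone as the scale, the median of all genes was -0.52. Mrpl45, which links that ribosome to the inner membrane, went against most of its list, from 68.7, 66.4 and 59.8 CPM to 155, 165 and 154 CPM (1.28, SE 0.062, edgeR adjusted p = 4.21e-14).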

How the data were processed

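RNA of 3 libraries labelled PA/OA and 3 labelled PP was sequenced. The deposited table holds whole-number counts per gene, made with featureCounts on build mm10 per the submitters' processing notes, which also name DESeq2 1.16.1 without its role. The labels' protocols describe capture with oligo(dT) or removal of rRNA and conventional or strand-marking libraries. Not given in the sources used here: which of these was used, the aligner, the annotation, the strand setting and the treatment of reads with several matches. Total counts of 24113169 to 32560589 per library limit the precision of low genes.

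Genes were filtered with filterByExpr, scaled with TMM and tested with edgeR 4.0.16 (R 4.3.3) in a quasi-likelihood fit over all 6 libraries, with Benjamini-Hochberg adjustment over 15718 genes and a threshold of 0.05. Standard errors come from the F statistic. The method was tested on simulated data. The exact permutation test was used for shares. Copies were found with blastn 2.17.0 against GENCODE M21 (GRCm38); protein-coding hits counted as copies only where the match covered at least 50% of their exon length, and each copy went to its best-matching member. Promoter windows are from RefSeq, with the first window taken per symbol. Within groups, libraries varied beyond sampling noise (chi-square per gene 2.80 to 4.62 on halved counts, over genes with at least 50 counts). TMM factors were 1.155 to 1.171 in PA/OA and 0.849 to 0.867 in PP.

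The rule for the members uses names and biotype only, but this set of genes and all gene lists were picked with earlier results of these data known. Named were members of the role groups, the 3 largest and 3 smallest fold changes of each subunit, every member not called or lower, the 3 most abundant per length and, of other lists, up to 3 genes with the smallest p and those against the direction of most of the list where 5 or fewer; further genes were named after their values were seen. Alternatives were other scalings, filters and tools (DESeq2 1.42.0, limma 3.58.1), a replicate block, protein-coding genes only, halved counts, removal of the abundance trend (lowess span 0.4), summed pseudogenes or copies, and leaving out each library. Halved counts stand for read pairs counted as 2 reads and were rounded. A few genes are not reported here by name; they remain in the fits and counts.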

Additional observations from a re-analysis of the deposited data

How the results depend on the processing

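The members' rise kept its direction in the median under every setting run except that the small subunit's median was -0.014 with the abundance trend removed; the cause was not tested. Under that setting, where values are relative to genes of like abundance, 26 members were called higher and 20 lower (median 0.039). The small subunit had 7 higher and 9 lower, and the large subunit 19 and 11 (median 0.039). Log2 fold changes that then turned sign, among the genes reported by name, were Rps12 -0.409, Rpl5 -0.264, Rpl17 -0.226, Rpsa -0.216, Rps23 -0.212, Rpl6 -0.182, Rpl8 -0.169, Rplp0 -0.164, Rpl18 -0.158, Rps7 -0.157, Rps3 -0.156, Rplp1 -0.156, Rpl3 -0.155, Rps3a1 -0.145, Rpl7 -0.144, Rpl12 -0.128, Rps20 -0.124, Rps6 -0.085, Rps24 -0.084, Rpl15 -0.076, Rpl19 -0.071, Rpl10a -0.059, Rpl4 -0.054, Rps9 -0.039, Rps14 -0.034, Rpl13 -0.023, Rpl30 -0.022, Rps29 -0.014 and Rpl27 -0.013; of genes not called under either scaling, Rps27a went to -0.14 and Rpl36al to 0.54. Of other lists, TOP mRNA genes had 3 higher and 10 lower, chaperones 2 higher, regulators of the mRNAs 3 higher, promoter factors 3 higher, the p53 arm 4 lower, the paralogs 2 lower, and 1 ribosomal protein outside the name rule was lower. With library size only, the members' median was 0.23 with 3 lower, the small subunit's 0.20 with 1 lower and the large subunit's 0.24 with 2 lower, and Rpl17 (-0.025), Rps12 (-0.26), Rps29 (-0.035) and Rpl30 (-0.13) turned sign. There, TOP mRNA genes had 3 lower, chaperones 7 lower, the rescue list 5 higher and 10 lower, the paralogs 2 lower, the p53 arm 4 lower, promoter factors 3 higher and 3 lower, and mitochondrial ribosomal proteins 7 higher and 58 lower. Upper-quartile scaling gave medians of 0.42, 0.40 (small) and 0.44 (large), 13 mitochondrial ribosomal proteins higher, 4 genes of the p53 arm, 2 promoter factors and 2 paralogs lower, and 1 TOP mRNA gene lower, and Rps12 had -0.06. With protein-coding genes only, medians were 0.58 and, for the small subunit, 0.55, and 2 promoter factors were lower; with at least 1 CPM in 3 libraries the small subunit's median was 0.58. With pseudogenes by name summed, and with near-identical copies summed, 0 members and 0 large subunit genes were lower, against 1, and Rpl21 turned to 0.13 and Rpl36al to 0.18 with the copies. Leaving out each library in turn gave 71 to 75 members higher, 1 lower, and medians from 0.63 to 0.72 over all members, from 0.61 to 0.69 in the small and from 0.65 to 0.73 in the large subunit. The rise in the members' share of protein-coding counts, 0.899 percentage points, ranged from 0.761 to 1.01 without each library and reached 1.04 with copies. Same-numbered libraries did not deviate together (r = 0.007, 0.001 and -0.041), which cannot exclude that libraries of the same number were handled together. A replicate block gave 74 members higher and 1 lower with a median of 0.66, and all 31 small subunit genes were then higher. DESeq2 called 71 members higher and 1 lower. Rpl24 and Rpl36al had under 2 CPM of their own in each library, which limits the precision of their values. Part of the exon bases of both lies in same-strand genes without counts, and the cause of their low counts was not tested.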
